A study of Drosophila melanogaster with 8 samples.

Results

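The genes dpp, scw, tld, tsg, zen, pnr, ush and Ance act on the dorsal side of the early fly embryo, in BMP signalling and in the dorsal ectoderm and amnioserosa that it patterns. They were taken as a list of names, and all 8 were found among the 17807 genes of the annotation. The window of a gene was its annotated span plus 10 kb on each side. After peaks that shared at least 1 bp in any of the 8 libraries had been joined into regions, the 8 windows held 117 of the 38545 regions of the genome.

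The peaks came from ATAC-seq, which uses the Tn5 transposase to put sequencing adapters into open DNA, on Drosophila melanogaster embryos. Mutant embryos stood against wild-type (WT) embryos at 1 to 1.5 h, called early here, and at 2.5 to 3 h, called late, with 2 libraries in each of the 4 groups. The mutant is taken to be the one with mislocalized IntS11, the endonuclease of the Integrator complex, although all titles, those of WT too, carry that wording. No allele, strain, driver or number of embryos is given, and nothing states that replicates were collected separately, so the p-values reflect the spread among libraries, which may be technical.

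In the blastoderm the Dorsal protein represses dpp, zen and tld ventrally, which leaves them active on the dorsal side. Sog and Tsg carry the BMP ligands Dpp and Scw towards the dorsal midline, where the protease Tld sets them free. High signalling at the midline activates amnioserosa genes such as ush and Ance, and lower signalling around it activates pnr.

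Early, the lists held 18706 and 15569 peaks in the mutant against 25201 and 23815 in WT, and late 19995 and 19035 in the mutant against 19002 and 18440 in WT. The shortest peak of a library ranged from 100 to 156 bp. The lists hold positions alone, so depth is unknown, and "not called" does not mean closed. At the IntS11 gene itself, 1 region was called in 0 of 4 mutant and 4 of 4 WT libraries and another in 4 of 4 mutant and 0 of 4 WT libraries. Peak positions cannot show cell-type markers, and in whole embryos fewer cells with an open site and less opening per cell cannot be told apart.

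Early, before most zygotic genes are transcribed, the 8 loci carried less peak-covered DNA in the mutant than in WT. Covered length, the number of bp of a window that lie in peaks, was lower in the mutant without overlap at 7 of the 8 genes, against 84.2% of all gene windows, and higher at 0, against 2.14%. The exception was tsg, whose libraries overlapped. The mutant mean ranged from 34.5% of WT at scw to 69.4% at zen, with a median of 51.1%, while the median over all genes was 43.8%. The difference at these genes was thus close to that of the genome. The mutant lists were also shorter at this time. With the 15569 widest peaks of each library, the windows of dpp, tld, zen, pnr and ush, 5 of 8, stayed lower without overlap, against 75.3% of all gene windows, while scw and Ance overlapped like tsg.

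**Figure D1:**
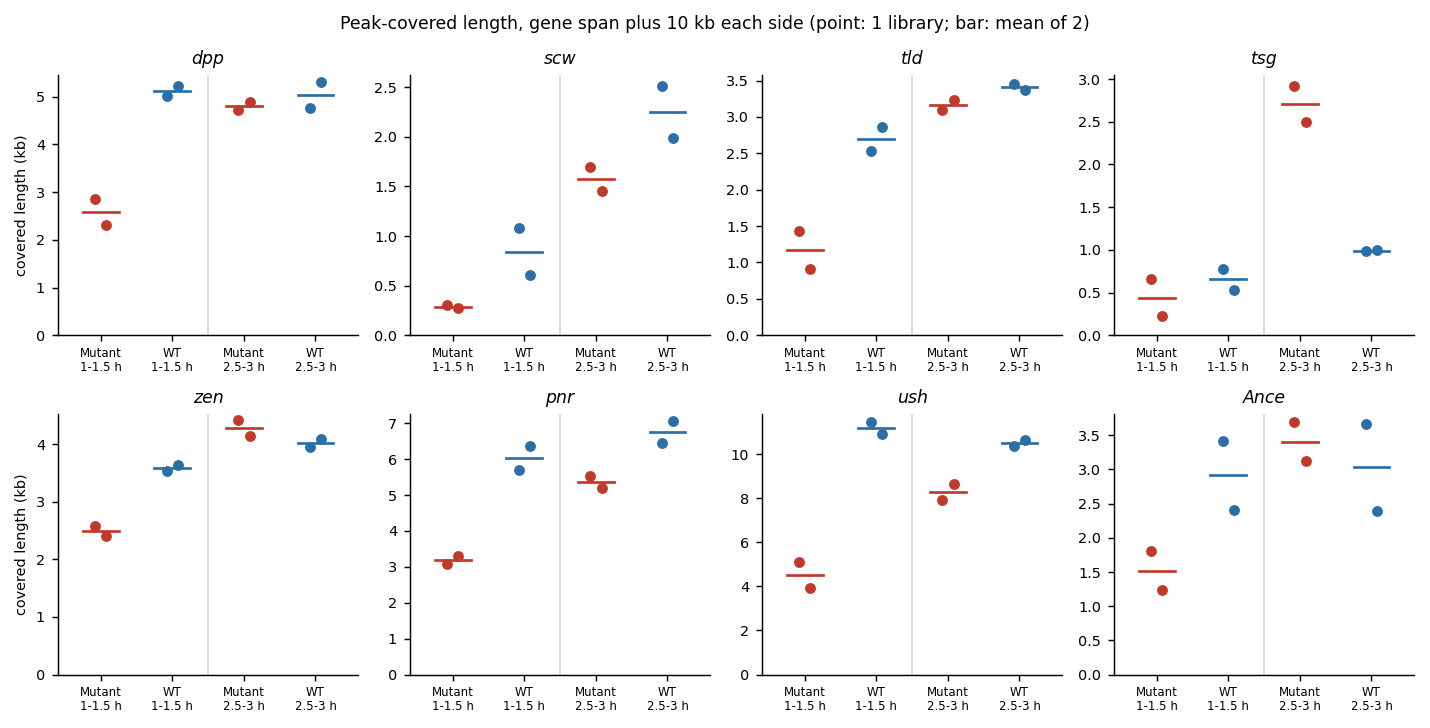
Peak-covered length in kb (y axis) in the window of each gene, for the 2 libraries of each group (points) and their mean (short lines), mutant and WT side by side at each time. Early, the mutant points lie below the WT points at 7 of the 8 genes, while late they lie below at 4 genes and above at tsg and zen.

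Single regions showed the same picture. A region was lost when both WT libraries and neither mutant library called it, gained when both mutant libraries and neither WT library did, and kept when called in all 4. Of 65 regions called in both early WT libraries, 16 (24.6%) were lost, against 27.1% genome-wide. Of 34 called in both early mutant libraries, 2 (5.88%) were gained, against 6.48%.

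Lost regions were short, with a median peak length of 258 bp in WT, against 538.5 bp for the 32 kept regions. Genome-wide it was much the same, with medians of 253.5 bp for lost and 463.5 bp for kept regions. Of the kept regions, 20 (62.5%) were shorter in the mutant without overlap, against 67.4% genome-wide, and 2 (6.25%) were longer, against 5.23%. Of the regions called in both early WT libraries, 8 of 33 in the flanks, 8 of 26 inside the genes and 0 of 6 at gene ends were lost. No genome-wide share by place was computed. With lists of equal length 9 of 42 regions (21.4%) were lost, against 19.4% of all regions. With peaks of at least 200 bp alone 19 of 47 (40.4%) were lost, against 40.6%.

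Late, when zygotic transcription is under way, the difference was smaller. Covered length was lower in the mutant without overlap at scw, tld, pnr and ush, 4 of 8 genes against 38.2% of all gene windows. It was higher without overlap at tsg and zen, 2 of 8 against 19.1%, and overlapped at dpp and Ance. The dpp window was also lower without overlap under 5 of the alternatives that kept all libraries (peaks of at least 200 bp, common limits of 160 bp, equal lists and both narrower flanks). It was lower too without late mutant replicate 2 or late WT replicate 1, which leaves a single library in that group. The median was 93.9% of WT, against 91.0% over all genes.

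Of 56 regions called in both late WT libraries, 8 (14.3%) were lost, against 12.5% genome-wide. Of 56 called in both late mutant libraries, 9 (16.1%) were gained, against 13.1%. Among the 42 kept regions, 20 (47.6%) were shorter in the mutant, against 39.4%, and 9 (21.4%) were longer, against 18.2%.

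The windows of scw, tld, pnr and ush, 4 of the 8, were lower without overlap at both times, against 36.3% of all gene windows. For each of them the exact two-sided permutation test over both times gave p = 0.0556, the smallest that its 36 arrangements allow, and an adjusted p of 0.154 over 17807 genes. Separation in the same direction at both times fixes this p, so the test adds nothing to the separation. At a single time the smallest p is 0.333. The separation ended for tld late with flanks of 5 kb and 2 kb (p = 0.167 for each over both times, exact permutation test), and for scw early with equal lists (p = 0.111, exact permutation test). By region, 22 of the 117 (18.8%) had less peak length in the mutant at both times without overlap, against 11.6% genome-wide, and 2 had more (1.71%), against 1.41%. Another 7 (5.98%) had less early and more late, against 3.67%. Less at both times needs a peak in all 4 WT libraries. That held for 46 of the 117 regions (39.3%) and for 11155 of the 38545 genome-wide. These shares are over all regions and are not corrected for how many could meet each rule. Of the 117 regions, 26 (22.2%) were called in all 8 libraries, against 17.8% genome-wide.

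**Figure D2:**
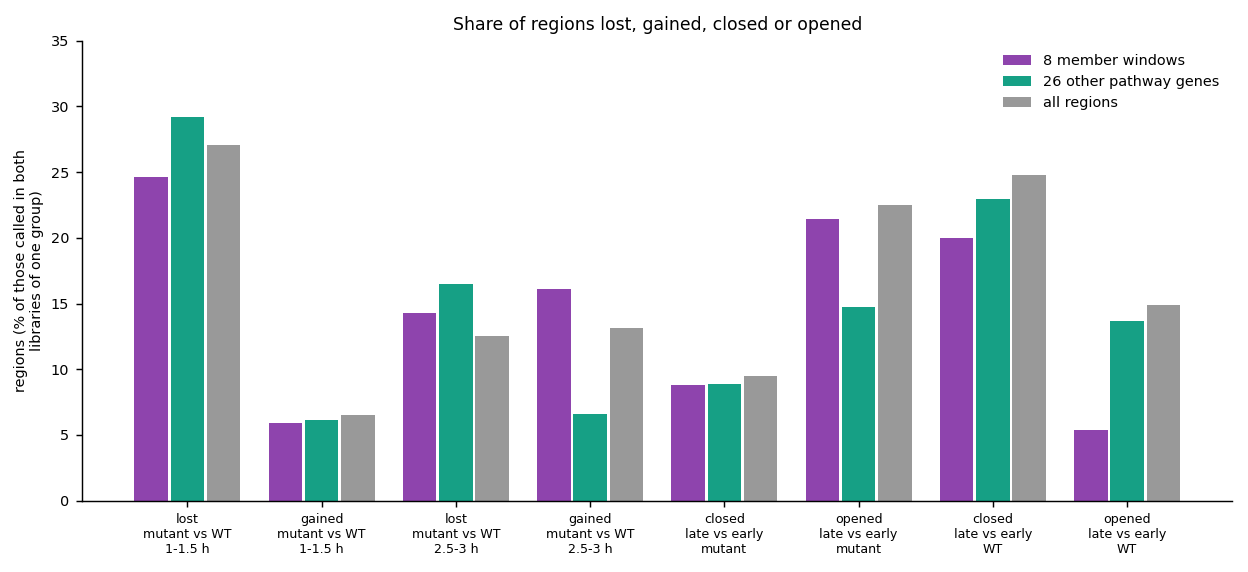
Share of regions in percent (y axis) that were lost, gained, closed or opened in each comparison, for the 8 windows, the windows of 26 other pathway genes, and all regions of the genome. The 8 windows stand at 24.6% for early loss, against 27.1% genome-wide, and at 5.36% for regions that opened with time in WT, against 14.9%.

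The ligand gene dpp encodes the main BMP of the fly (gene 33432, dm6, 2L, 2428372 to 2459823). Its window held 15 regions, 10 of them inside the gene, and no library had a peak within 250 bp of either end of the span. Covered length was 2849 and 2300 bp in the mutant against 5024 and 5232 bp in WT early, and 4718 and 4879 bp in the mutant against 4762 and 5313 bp in WT late. The early libraries did not overlap, while the late ones did. Over both times the mean difference, mutant minus WT, was -1396 bp (exact permutation p = 0.111, adjusted p = 0.233).

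One region inside dpp (2L, 2439113 to 2439578) had a peak in every WT library and in no mutant library. Its WT peaks measured 389 and 415 bp early and 366 and 326 bp late (exact permutation p = 0.0556, adjusted p = 0.425 over 38545 regions). Calls in every WT and no mutant library fix this p by themselves. Across the 8 windows 46 regions were called in all 4 WT libraries, and 3 of them (6.52%) in no mutant library, against 4.61% genome-wide. The other two lie in ush.

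A further early loss inside dpp (2449624 to 2450062) measured 0 bp in the mutant against 148 and 224 bp in WT. Late, it was called in 1 mutant library, with 0 and 158 bp in the mutant against 432 and 419 bp in WT. In the flank below dpp, inside CG9886, a region (2421101 to 2421602) was called in the early WT libraries alone, at 222 and 502 bp.

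Other dpp regions were called throughout. One inside the gene (2444091 to 2444466) was longer in the mutant at both times, with 286 and 330 bp against 279 and 256 bp in WT early, and 342 and 328 bp in the mutant against 279 and 308 bp in WT late. Another (2448021 to 2448836) had 214 and 174 bp in the mutant against 616 and 812 bp in WT early, and 629 and 691 bp in the mutant against 684 and 756 bp in WT late. The region over the tRNA gene tRNA:Tyr-GTA-1-3, 2226 bp above dpp (2462049 to 2462712), had 131 and 130 bp in the mutant against 613 and 581 bp in WT early, and 549 and 491 bp in the mutant against 567 and 577 bp in WT late. These last 2 regions thus had shorter early mutant peaks without overlap, and late mutant peaks nearer to WT.

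The widest region of the dpp window lay 6796 bp above the gene (2466619 to 2467744). Its peak length was 574 and 0 bp in the mutant against 487 and 366 bp in WT early, and 928 and 722 bp in the mutant against 295 and 689 bp in WT late. The early libraries overlapped, and both late mutant libraries exceeded both late WT libraries. The longest peaks inside dpp (2456411 to 2457433) measured 554 and 505 bp in the mutant against 538 and 176 bp in WT early, and 927 and 1001 bp in the mutant against 994 and 968 bp in WT late, with overlap at both times.

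**Figure D3:**
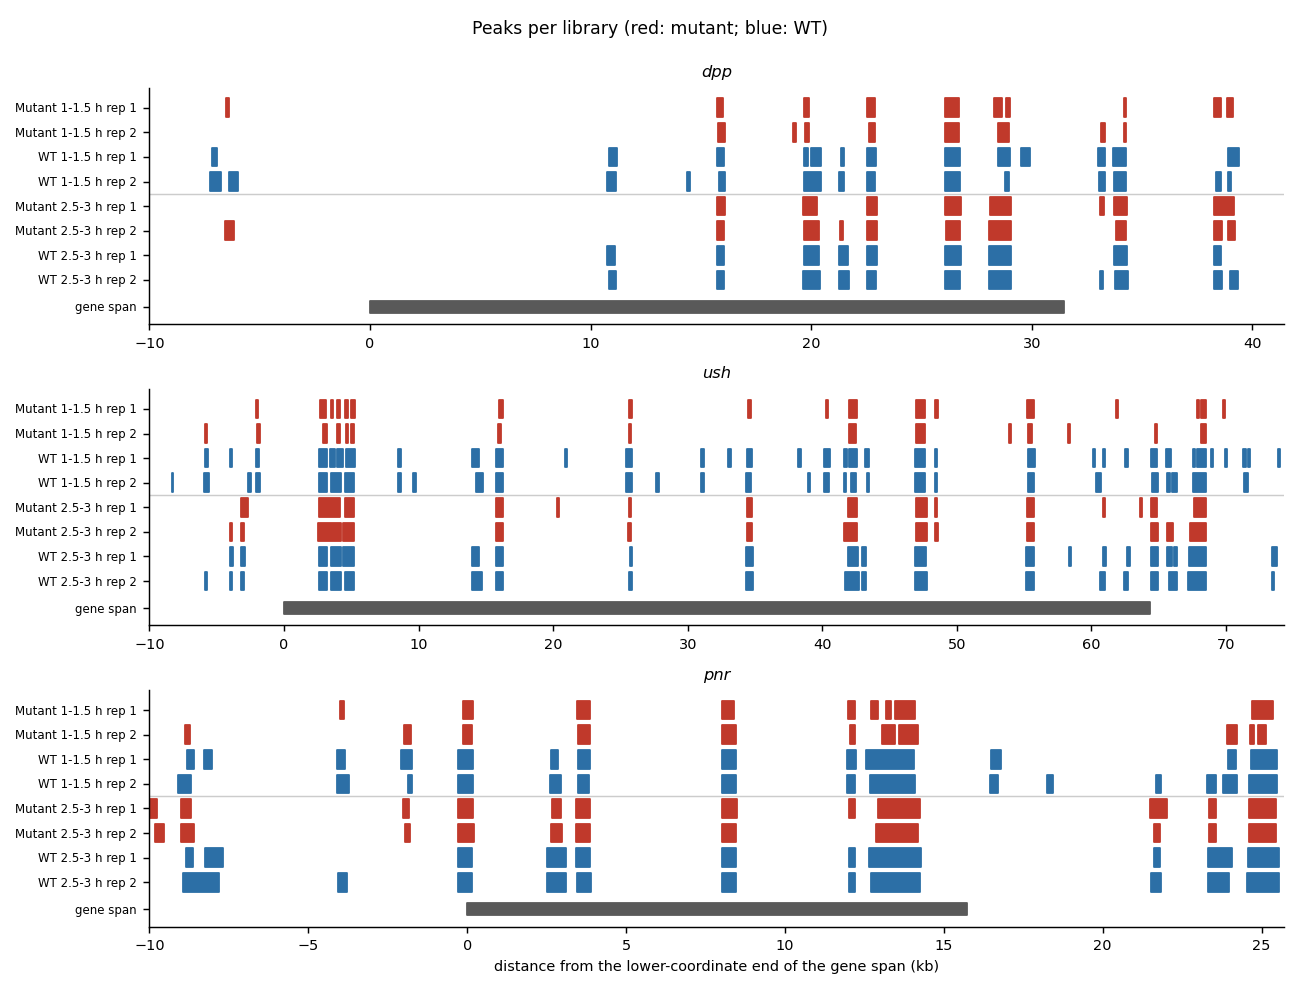
Peaks (boxes) of each library, mutant rows above WT rows at each time, along the windows of dpp, ush and pnr, with distance from the lower-coordinate end of the gene in kb (x axis) and the gene span marked. Peaks of 1 dpp region and 2 ush regions appear in all 4 WT rows and in no mutant row. In 1 of these ush regions the early and late WT peaks lie at different positions.

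The second ligand gene, scw, encodes a BMP that pairs with Dpp in the early embryo (gene 46000, dm6, 2L, 19699379 to 19700968). It lies within the span of Lar, a receptor tyrosine phosphatase gene, so its peaks overlap both genes. Covered length was 305 and 274 bp in the mutant against 1076 and 604 bp in WT early, and 1700 and 1453 bp in the mutant against 2515 and 1986 bp in WT late. Mutant libraries were below WT at both times, and each genotype had more late than early. The early difference was -550.5 bp, and -124 bp with overlap in lists of equal length.

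Its widest region covers most of the gene (19699735 to 19701073) and went the opposite way at the later time. Peak length there was 0 and 114 bp in the mutant against 752 and 177 bp in WT early, but 1224 and 1060 bp in the mutant against 969 and 702 bp in WT late. A neighbour 819 bp above scw (19701787 to 19702867) had 305 and 160 bp in the mutant against 169 and 300 bp in WT early, and 157 and 160 bp in the mutant against 905 and 954 bp in WT late. The early libraries overlapped there, and the late WT peaks were longer than all others. The last region called in more than 1 library (19703035 to 19703484) was lost early, at 0 bp in the mutant against 155 and 127 bp in WT, and kept late, at 319 and 233 bp in the mutant against 450 and 330 bp in WT.

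The protease gene tld (gene 42945, dm6, 3R, 24749731 to 24753510) had 1429 and 914 bp covered in the mutant against 2528 and 2855 bp in WT early, and 3092 and 3233 bp in the mutant against 3455 and 3374 bp in WT late. The late difference of -252 bp was -60.5 bp with flanks of 5 kb, where the libraries overlapped. All 8 libraries called the region at its lower-coordinate end (24749113 to 24750316). That region also reaches the end of tok, the paralogous protease gene, and cannot be assigned to one of them. It was shorter in the mutant early, with 559 and 535 bp against 631 and 750 bp in WT, and longer in the mutant late, with 1096 and 1204 bp against 739 and 799 bp in WT.

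Above tld, 3 regions lay within asp, a spindle protein gene, and 1 within AstA, a neuropeptide gene. One of those in asp (24754173 to 24755138) was lost early, at 0 bp in the mutant against 272 and 565 bp in WT, and kept late, at 400 and 639 bp in the mutant against 897 and 939 bp in WT. The widest (24758357 to 24759968) had 226 and 107 bp in the mutant against 943 and 725 bp in WT early, a mean of 20.0% of WT, and 1409 and 1184 bp in the mutant against 1543 and 1419 bp in WT late. Both were lower in the mutant at both times. A short region inside tok (24742711 to 24742931) was called in the early mutant libraries alone, at 221 and 158 bp.

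The gene tsg encodes the secreted partner of Sog (gene 32160, dm6, X, 11988062 to 11988948). Covered length was 653 and 228 bp in the mutant against 776 and 535 bp in WT early, which overlapped, and 2919 and 2501 bp in the mutant against 985 and 998 bp in WT late, 273% of WT. The late difference of 1718.5 bp was 246.5 bp with flanks of 5 kb and 410.5 bp with flanks of 2 kb. Over both times the mean difference was 752 bp (exact permutation p = 0.278, adjusted p = 0.402). The region over tsg itself (11988280 to 11989181), the widest of the window, had 359 and 0 bp in the mutant against 192 and 218 bp in WT early, and 890 and 780 bp in the mutant against 810 and 832 bp in WT late. It overlapped at both times.

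The late difference lay over the neighbours, where 4 regions were gained, of 9 in all windows. Below tsg, at the end of gd, a maternal protease gene of the dorsoventral pathway, a region (11987291 to 11987788) was called in the late mutant libraries alone, at 299 and 494 bp. The other three lay inside fw. The first (11993936 to 11994666) had 731 and 425 bp in the late mutant against 0 bp in late WT, with a 148 bp peak in 1 early WT library. The second (11995637 to 11996151) had 327 and 515 bp in the late mutant against 0 bp in late WT, with a 228 bp peak in 1 early mutant library.

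The third of the fw regions (11997047 to 11997542) had 190 and 0 bp in the mutant against 296 and 182 bp in WT early, and 380 and 287 bp in the mutant against 0 bp in WT late. It thus closed with time in WT and not in the mutant. A short fw region (11993412 to 11993586) was lost late, at 0 bp in the mutant against 175 and 166 bp in WT.

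**Figure D4:**
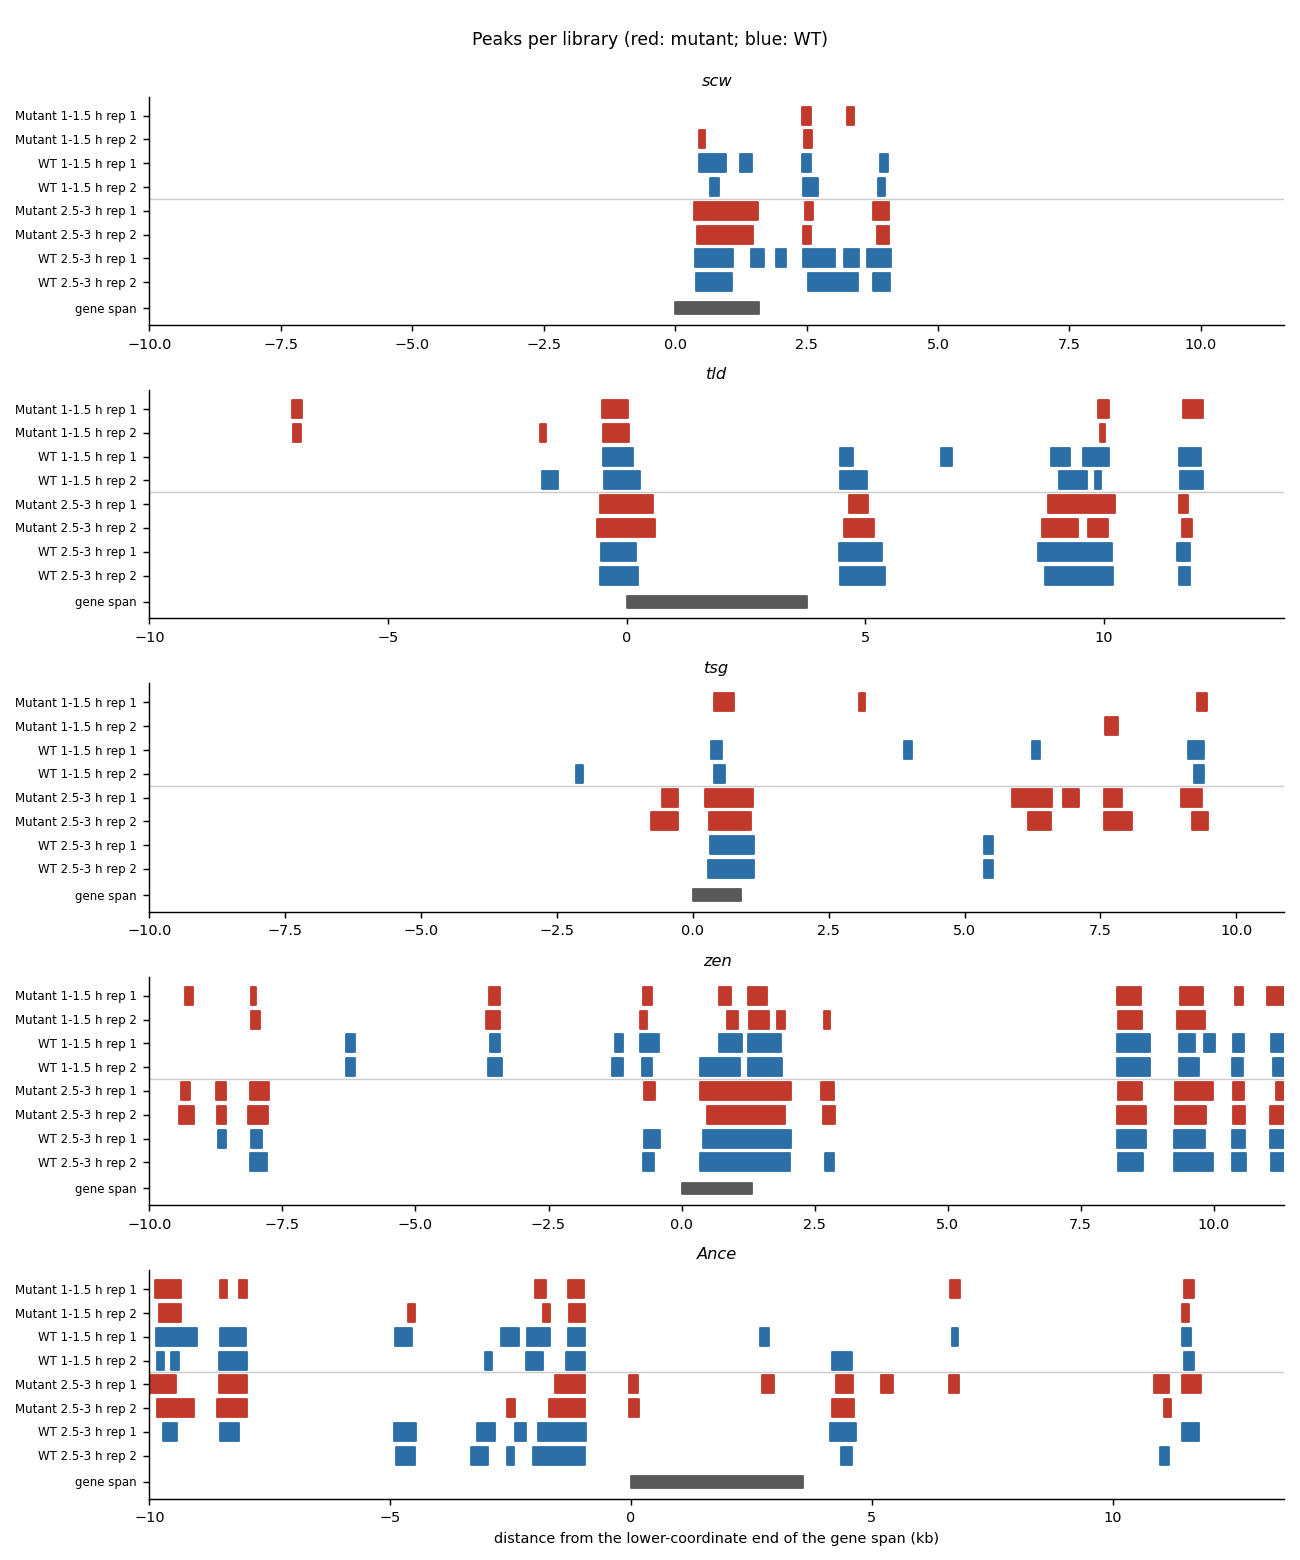
Peaks (boxes) of each library, mutant rows above WT rows at each time, along the windows of scw, tld, tsg, zen and Ance, with distance from the lower-coordinate end of the gene in kb (x axis) and the gene span marked. In the tsg window the late mutant rows hold peaks beside the gene, in 4 regions called in both, that the late WT rows lack.

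Among the transcription factors, zen is a homeobox gene needed for the amnioserosa and lies in the Antennapedia complex between zen2 and bcd (gene 40828, dm6, 3R, 6752864 to 6754194). Covered length was 2574 and 2408 bp in the mutant against 3538 and 3639 bp in WT early, and 4428 and 4145 bp in the mutant against 3951 and 4085 bp in WT late. It was lower in the early mutant and higher in the late mutant, without overlap at either time, against 12.9% of all gene windows. The late difference was 268.5 bp and turned to -78 bp with flanks of 5 kb or 2 kb. The early one was -1097.5 bp, and -194 bp in lists of equal length.

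All libraries called the region at the upper-coordinate end of zen (6753215 to 6754915), the widest of its window. Its peak length was 583 and 741 bp in the mutant against 1055 and 1386 bp in WT early, and 1699 and 1470 bp in the mutant against 1644 and 1696 bp in WT late. It was shorter in the early mutant without overlap, and late the genotypes overlapped. Inside Ama, a region (6763872 to 6764826) runs past the far edge of the window, at 6764194, and was measured whole. It overlapped early, with 700 and 401 bp in the mutant against 765 and 566 bp in WT. The 401 bp of early mutant replicate 2 lay wholly beyond the window, and those of early WT replicate 2 did so except for a 210 bp peak. Inside the window this region was thus not called in early mutant replicate 2, although it counts as kept. Late it was shorter in the mutant, with 341 and 329 bp against 905 and 814 bp in WT.

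Short regions in the flank towards zen2 differed with time and genotype. Those at 6746550 to 6746732 and 6751565 to 6751766 were called in the early WT libraries alone, at 183 and 170 bp and at 152 and 191 bp. Another (6749182 to 6749487) had 218 and 263 bp in the mutant against 190 and 269 bp in WT early, and closed in both genotypes. The reverse order was seen 7760 bp below zen (6744714 to 6745104), where the mutant had 107 and 169 bp against 0 bp in WT early, and 355 and 373 bp against 203 and 319 bp in WT late. That region and the one in dpp are the 2 with more peak length in the mutant at both times.

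Over zen2 itself, a region (6743416 to 6743700) was gained late, at 156 and 285 bp in the mutant against 0 bp in WT, after a 152 bp peak in 1 early mutant library. At the end of zen2 (6744110 to 6744306), the mutant had no early peak and late 195 and 169 bp, against 156 and 0 bp in late WT.

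The GATA factor gene pnr is active in the dorsal ectoderm (gene 44849, dm6, 3R, 16026079 to 16041796). Covered length was 3077 and 3298 bp in the mutant against 5688 and 6371 bp in WT early, and 5537 and 5192 bp in the mutant against 6457 and 7065 bp in WT late, lower in all mutant libraries. The region at its lower-coordinate end (16025789 to 16026286) had 321 and 285 bp in the mutant against 475 and 470 bp in WT early, and 461 and 483 bp in the mutant against 426 and 435 bp in WT late. The end of pnr thus had shorter early peaks and slightly longer late peaks in the mutant.

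Inside pnr, 4 of 5 regions were kept early. The widest (16038625 to 16040346) had 986 and 1001 bp in the mutant against 1510 and 1421 bp in WT early, and 1315 and 1308 bp in the mutant against 1623 and 1524 bp in WT late. Its neighbour at 16029496 to 16029965 was longer in the early mutant, with 398 and 373 bp against 370 and 332 bp in WT, and overlapped late, with 432 and 455 bp in the mutant against 454 and 441 bp in WT. The region lost early (16028600 to 16029177) had 0 bp in the mutant against 222 and 352 bp in WT, and late 307 and 372 bp in the mutant against 576 and 578 bp in WT.

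In the flanks of pnr, a region 750 bp above the gene (16042546 to 16042880) was called in the early WT libraries alone, at 305 and 231 bp. Inside GATAe, another GATA factor gene, a region (16016083 to 16016520) was called in the late mutant libraries alone, at 231 and 273 bp. One more late gain lay 1740 bp below pnr (16024003 to 16024339), with 183 and 172 bp in the mutant against 0 bp in WT. Early it had been called in both WT libraries, with 0 and 225 bp in the mutant against 337 and 126 bp in WT. Inside IKKbeta, a region (16047552 to 16048087) opened in the mutant, with no early mutant peak against 0 and 171 bp in early WT, and late 536 and 182 bp in the mutant against 187 and 317 bp in WT.

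The gene ush, which encodes a zinc-finger cofactor that binds Pnr, is the longest of the 8 (gene 33225, dm6, 2L, 476220 to 540560). It held 41 of the 117 regions, 7 of the 16 lost early and 4 of the 8 lost late. Of its 41 regions, the WT libraries called 30 and 25 early, and 18 and 18 late. Not all 41 could therefore be lost at either time. A share of loss was not computed for ush alone, so these counts do not show whether loss was more frequent there than genome-wide. Covered length was 5089 and 3905 bp in the mutant against 11448 and 10916 bp in WT early, 40.2% of WT, and 7918 and 8643 bp in the mutant against 10364 and 10624 bp in WT late, 78.9% of WT. Mutant libraries were below WT at both times, with a mean difference of -4449 bp.

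In ush, 2 regions were called in all WT and no mutant libraries. The first (490210 to 490999), at the end of the long noncoding RNA gene lncRNA:CR46258, had 451 and 526 bp in early WT and 520 and 695 bp in late WT. The second (519152 to 519704) had 254 and 178 bp in early WT and 298 and 295 bp in late WT. Its early WT peaks began 43.204 and 43.307 kb from the lower-coordinate end of ush, and both late ones ended at 43.23 kb. The early peak of replicate 2 thus shared no DNA with the late peaks, although all were joined into the same region. Also lost late were a region inside ush (538633 to 539109), at 0 bp in the mutant against 279 and 296 bp in WT, and one in the neighbour Ets21C (549642 to 550000), at 0 bp in the mutant against 344 and 167 bp in WT. The region at 538633 had also been called in 1 early WT library, at 220 bp, and that in Ets21C in no early library.

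Of the other early losses, 3 were called in no late library of either genotype. Those inside ush measured 0 bp in the mutant against 243 and 265 bp in WT (484678 to 484942) and against 255 and 230 bp in WT (507174 to 507428). The one in Ets21C (547511 to 547870) measured 0 bp in the mutant against 227 and 290 bp in WT. The remaining 2 came back in 1 late mutant library each. The region at 536583 to 537324 had 0 bp in the mutant against 164 and 350 bp in WT early, and 162 and 0 bp in the mutant against 216 and 357 bp in WT late. Its early WT peaks lay 60.828 to 60.992 kb (replicate 1) and 60.363 to 60.713 kb (replicate 2) from the lower-coordinate end of ush. They shared no DNA and were joined only through late peaks, so this early loss rests on no site called in both early WT libraries. The one over lwr, the gene of a SUMO-conjugating enzyme (541768 to 542614), had 0 bp in the mutant against 363 and 580 bp in WT early, and 0 and 421 bp in the mutant against 622 and 645 bp in WT late.

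The widest ush region (478772 to 481509), which also covers the transcription factor gene cbt, had 1377 and 815 bp in the mutant against 2081 and 1999 bp in WT early. Late it had 2217 and 2466 bp in the mutant against 2138 and 2041 bp in WT, so the order of the genotypes turned. The region at the upper-coordinate end of ush (540638 to 541156), inside lwr, had 0 and 172 bp in the mutant against 455 and 437 bp in WT early, and 459 and 492 bp in the mutant against 519 and 476 bp in WT late. It was shorter in the early mutant and overlapped late.

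The only late gain in the ush window (524563 to 524788) had 172 and 0 bp in the mutant against 125 and 165 bp in WT early, and 162 and 226 bp in the mutant against 0 bp in WT late. It closed with time in WT, as did a region (516368 to 516773) with 117 and 0 bp in the mutant against 406 and 362 bp in WT early and no late peak. In the flank below, inside MED15, a Mediator subunit gene, a region (474128 to 474468) had 122 and 273 bp in the mutant against 196 and 337 bp in WT early, and closed in both genotypes. Its neighbour (472988 to 473783) opened in the mutant, with no early mutant peak against 0 and 270 bp in early WT, and late 529 and 233 bp in the mutant against 325 and 276 bp in WT.

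The target gene Ance encodes a peptidase related to angiotensin-converting enzyme and is a marker of the amnioserosa (gene 34805, dm6, 2L, 13905645 to 13909212). Covered length was 1805 and 1232 bp in the mutant against 3423 and 2414 bp in WT early, and 3691 and 3127 bp in the mutant against 3667 and 2396 bp in WT late. The early libraries did not overlap, except in lists of equal length, and the late ones did. The late mean was 112% of WT, a difference that turned to -699.5 bp with flanks of 5 kb, without overlap.

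The lower-coordinate end of Ance (13905604 to 13905817) had a peak in the late mutant libraries alone, at 190 and 214 bp. Both late losses lay in the neighbour Smg5, a nonsense-mediated decay gene. One (13900722 to 13901179) had 0 and 141 bp in the mutant against 351 and 0 bp in WT early, and 0 bp in the mutant against 458 and 391 bp in WT late. The second (13902319 to 13902829) had 0 bp in the mutant against 0 and 159 bp in WT early, and 0 bp in the mutant against 389 and 351 bp in WT late. The WT peaks of these 2 regions were thus replicated late and not early.

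The widest region of the Ance window (13902942 to 13904701), at the end of Smg5, was shorter in the mutant at both times. It had 539 and 496 bp in the mutant against 1209 and 752 bp in WT early, and 625 and 910 bp in the mutant against 1240 and 1244 bp in WT late. On the other side, inside the paralogs Ance-2 and Ance-3, 2 regions opened in the mutant. That in Ance-2 (13909780 to 13910317) had 0 bp in the mutant against 0 and 409 bp in WT early, and 334 and 456 bp in the mutant against 538 and 219 bp in WT late. That in Ance-3 (13916500 to 13916866) had no early peak, and 323 and 163 bp in the mutant against 0 and 191 bp in WT late. Late, the genotypes overlapped in both.

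With time, covered length in the mutant was higher late than early without overlap at all 8 genes, against 81.7% of all gene windows, and lower at 0, against 1.77%. The median was 205% of the early value, against 199% over all genes. In WT it was higher at scw, tld, tsg, zen and pnr, 5 of 8 against 29.5% of all windows, lower at ush alone, 1 of 8 against 30.4%, and overlapping at dpp and Ance. The WT median was 112% of the early value, against 98.4% over all genes.

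By region, 12 of 56 called in both late mutant libraries (21.4%) had opened, meaning that no early mutant library called them, against 22.5% genome-wide. With peaks of at least 200 bp these were 17 of 46 (37.0%), against 41.3%. In WT, 3 of 56 (5.36%) had opened, against 14.9%. Regions closed when both early and no late library called them, and these were 3 of 34 (8.82%) in the mutant, against 9.45%, and 13 of 65 (20.0%) in WT, against 24.8%. Of the 28 regions kept with time in the mutant, 24 (85.7%) were longer late, against 80.6%, and 1 (3.57%) was shorter, against 1.68%. Of the 46 kept in WT, 28 (60.9%) were longer late, against 49.2%, and 7 (15.2%) were shorter, against 15.8%. The comparisons of genotypes and of times use the same libraries, so their counts are not independent.

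The 16 regions lost early had mixed fates. Late, 3 of them (18.8%), in the windows of scw, tld and pnr, were called in both mutant libraries, against 23.8% of all lost regions, and 3 more in 1 mutant library. Another 10 (62.5%) were called in no late mutant library, against 55.9%. Of these, 7 were called in no late library at all, 43.8% of the 16 against 36.2% genome-wide. The other three (18.8%) were the regions of dpp and ush lost at both times, against 11.1%. Of the 9 regions gained late, 4 had been called in at least 1 early WT library, against 48.1% of all gained regions, and 3 in no early library, against 33.7%.

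Within 250 bp of either end of the gene, tld, zen and pnr had a peak in every library. At ush the end peak was lost early, 1 of the 4 members with one in both early WT libraries, against 23.2% of such genes. It measured 0 bp in the mutant against 145 and 114 bp in WT early, and 143 and 172 bp in the mutant against 173 and 145 bp in WT late, counted within the 250 bp. In 1 early mutant library the same region held a 172 bp peak beyond that limit. Of 3 members with an end peak in both early mutant libraries 0 had gained it, against 2.71% genome-wide, and of 5 with one in both late WT libraries 0 lost it, against 9.11%. Ance gained one late, 1 of the 7 members with an end peak in both late mutant libraries, against 4.34%.

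End peaks opened with time in the mutant at scw, ush and Ance, 3 of the 7 members with one late, against 20.8% genome-wide, and in WT at tsg, 1 of 5, against 9.67%. At scw they measured 0 bp in the mutant against 116 and 0 bp in WT early, and 241 and 144 bp in the mutant against 245 and 0 bp in WT late. At tsg they measured 116 and 0 bp in the mutant against 0 bp in WT early, and 505 and 440 bp in the mutant against 482 and 484 bp in WT late. Opening here depended on the 250 bp limit at scw, ush and tsg. Early peaks of the same regions lay beyond it, at 0 and 114 bp in the mutant at scw and 0 and 172 bp at ush. At tsg the early WT libraries had 192 and 218 bp there. With time 0 of 3 closed in the mutant, against 3.94%, and 0 of 4 in WT, against 8.91%.

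A list of 26 other genes of the pathway, with ligands, receptors, Smads, extracellular regulators and dorsal targets, was set beside the 8. Early covered length was lower in the mutant without overlap at 25 of them, against 84.2% of all gene windows, with sog overlapping. The median was 53.7% of WT, against 43.8% over all genes. Late, 14 were lower, against 38.2% of all gene windows, 3 higher (sax, Dad and zen2), against 19.1%, and 9 overlapping. The late median was 86.0%, against 91.0%. The windows of zen2 and tok overlap those of zen and tld, so they are not separate from the 8. The windows of the 26 held 440 regions outside those of the 8 genes. Of these, 70 of 240 (29.2%) were lost early, against 27.1% of all regions, and 35 of 212 (16.5%) late, against 12.5%. Another 9 of 146 (6.16%) were gained early, against 6.48%, and 12 of 183 (6.56%) late, against 13.1%.

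Of 22 of these genes with an end peak in both early WT libraries, 5 lost it early, against 23.2% genome-wide. The 5 were the ligand gene gbb, the receptor genes wit and tkv, the Smad gene Med and sog, whose product binds Dpp. At tkv they measured 0 bp in the mutant against 292 and 256 bp in WT early, and 0 bp in the mutant against 288 and 253 bp in WT late, so that tkv alone of the 26 lost its end peak at both times. It was the 1 late loss among 21 with an end peak in both late WT libraries, against 9.11% genome-wide. At Med they measured 0 bp in the mutant against 333 and 318 bp in WT early, and 333 and 318 bp in the mutant against 333 and 501 bp in WT late. At wit they measured 0 bp in the mutant against 269 and 223 bp in WT early, and no late library had one.

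The end peak of sog measured 0 bp in the mutant against 244 and 216 bp in WT early, and 201 and 0 bp in the mutant against 0 bp in WT late. That of gbb measured 0 bp in the mutant against 307 and 38 bp in WT early, and 286 and 0 bp in the mutant against 322 and 342 bp in WT late. None of the 26 gained an end peak in the mutant, of 15 with one in both early mutant libraries and 20 in both late ones, against 2.71% early and 4.34% late genome-wide.

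For each member the protein-coding gene with the most similar covered length was sought, by the mean absolute difference over the 8 libraries. These were RPA2 for tld (79.2 bp), Obp50d for scw (156 bp), CG4004 for zen (175 bp), DPCoAC for dpp (198 bp), CG7202 for Ance (206 bp), tyn for tsg (225 bp), atos for pnr (325 bp) and sdt for ush (552 bp). Like tsg, tyn had more in the late mutant, with 3070 and 2163 bp covered against 1225 and 610 bp in late WT. It was chosen on these same values, so the likeness is not a separate result.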

How the data were processed

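The authors deposited 1 list of peaks per library, in which 3 columns give chromosome, start and end, with no score or other value. Per the submitters' processing notes, the build was dm6, and Trimmomatic 0.39, Bowtie2 2.2.5, SAMtools 1.18, the peak caller MACS2 2.2.7.1 and deepTools 3.5.1 were among the tools. How they were set, for example whether reads were shifted for the transposase, is not given in the sources used here.

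Groups came from the titles, and coordinates are 1-based. Gene spans were taken from RefSeq (Release 6, as in dm6), without strand or exons, so a gene end may be 5′ or 3′, and exonic or intronic position was not analysed here. Peak length is the summed length of a library's peaks in a region. A region that touched a window was counted whole, also where it ran past the window's edge. Covered length was computed for all 17807 genes, whose windows can overlap, and shares of windows are over the 16978 with a peak in any library. Exact two-sided permutation tests exchanged genotypes within times, with Benjamini-Hochberg adjustment over all genes or regions. They were tested on simulated data. No 2 lists were identical. Python 3.11.15, numpy 2.4.6 and pandas 2.3.3 were used.

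The members, the pathway list and the rules were chosen with earlier results of these data known. The rule named all members, regions lost, gained, opened or closed, regions at gene ends, the widest region of each window and the most similar gene. The dpp regions starting at 2444091, 2448021, 2456411 and 2462049, the scw region at 19701787, the zen region at 6763872, the pnr region at 16029496, the ush regions at 501597 and 523081 and the Ance region at 13897054 were chosen after their values were seen. Alternatives were peaks of at least 200 bp, common limits of 160 bp, equal list lengths, flanks of 5 kb and 2 kb, a larger overlap for a call, a replicate block and each library left out.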

Additional observations from a re-analysis of the deposited data

Results flagged for a closer look

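In the zen window the genotype difference changed sign between the times, with all libraries in order. The change was 1366 bp, with mutant minus WT differences of -1097.5 bp early and 268.5 bp late (exact permutation test, p = 0.0556, adjusted p = 0.450). That order of the libraries gives this p by itself, so the test adds nothing to it.

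The peak length of 7 of the 117 regions (5.98%) turned in the same way, against 3.67% genome-wide. Both shares are over all regions. Those without a peak in both early WT and both late mutant libraries could not turn in this way. Each had p = 0.0556 in the exact permutation test of the difference between the times, the smallest it allows, and an adjusted p of 0.930 over 38545 regions. The turn without overlap, by which they were picked, fixes this p, so the test adds nothing to it. The change was 1196 bp at the widest ush region, 714 bp at the region over scw, 524.5 bp at the end of tld and 211 bp at the end of pnr. It was 793 bp at an Ance region inside CenG1A (13897054 to 13897667), which had 313 and 0 bp in the mutant against 529 and 573 bp in WT early, and 577 and 607 bp in the mutant against 387 and 0 bp in WT late. It was 322.5 bp at a ush region (501597 to 502104) with 219 and 164 bp in the mutant against 508 and 445 bp in WT early, and 191 and 251 bp in the mutant against 185 and 182 bp in WT late. It was 85 bp at a ush region (523081 to 524023) with 671 and 720 bp in the mutant against 756 and 729 bp in WT early, and 867 and 872 bp in the mutant against 805 and 858 bp in WT late.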

How the results depend on the processing

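With 2 libraries a group no p can pass 0.05, and no adjusted p in any setting fell below 0.152. Depth is unknown, so no detection limit was set. The cause of the changes that follow was not tested. With peaks of at least 200 bp, 0 regions were gained early and 1 closed in the mutant. With gaps up to 160 bp bridged and peaks of at least 160 bp, these were 0 and 1, and 5 opened in WT. With equal list lengths 9 were lost early and 7 closed in WT. Flanks of 5 kb, which hold fewer regions, gave 0 gained early, 5 gained late and 1 opened in WT. Flanks of 2 kb gave 0 gained early, 4 lost late, 4 gained late, 1 closed and 5 opened in the mutant, and 8 closed and 0 opened in WT.

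Under these and the other alternatives, 186 differences of covered length kept their sign and 6 changed it. At tsg the early difference became 36.5 bp with peaks of at least 200 bp and 131.5 bp with equal lists. At zen the difference over both times became 87.75 bp with equal lists, and the late one -78 bp with both narrower flanks. At Ance the late one became -699.5 bp with flanks of 5 kb. Of 80 differences at a single time, 29 moved by over 1.5 times. With equal lists the early scw, zen and Ance differences were -124, -194 and -818 bp, with overlap at scw and Ance. With flanks of 5 and 2 kb, which leave out covered DNA, late tsg was 246.5 and 410.5 bp, late pnr -525.5 and -389 bp, late dpp -772.5 and -720.5 bp, and late tld, with overlap, -60.5 and -17.5 bp.

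Leaving out a library leaves 1 in its group, so counts over that group can rise by construction. Early losses ranged from 15 to 31 (26 without early mutant replicate 1, 27 and 31 without early WT replicates 1 and 2), early gains from 2 to 7 (7 and 5 without early mutant replicates 1 and 2), late losses from 8 to 12 and late gains from 9 to 15 (15 without late mutant replicate 2). Regions closed ranged from 3 to 9 in the mutant and 13 to 27 in WT, and regions opened from 12 to 21 in the mutant and 3 to 7 in WT. The late dpp difference became 36.5 bp (range -514.5 to 36.5) and that of Ance -258 bp (range -258 to 1013) without late WT replicate 2. At scw the difference between the times, -123.5 bp, became 112.5 bp without early WT replicate 2 and 141 bp without late WT replicate 1 (range -388 to 141). Differences without overlap that moved by over 1.5 times were scw early (-314.5 bp) and Ance early (-895.5 bp) without early WT replicate 1, scw late (-409.5 bp) without late WT replicate 1, and zen late without late mutant replicate 1 (127 bp) or 2 (410 bp).

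The replicate differences of the genotypes correlated at -0.000506 early and 0.0229 late over kept regions. This cannot show whether libraries of the same replicate number were handled together, since regions not kept were left out. Replicate 1 held more peaks than replicate 2 in every group. With the number as a replicate block the ush difference over both times stayed -4449 bp (exact permutation p = 0.125, the smallest possible), and the smallest adjusted p was 0.294.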
